A study of Mus musculus with 16 samples.

Results

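Dividing intermediate progenitors of the embryonic mouse forebrain were chosen by their UMIs from a pooled matrix of single-cell RNA counts. A UMI, or unique molecular identifier, stands for 1 captured RNA molecule. A member had at least 2 UMIs of the T-box factor gene Eomes and more Eomes than Neurod1 UMIs. It also had at least 3 UMIs summed over 10 genes mainly of the G2 and M phases. These were Top2a, Mki67, Ccnb1, Nusap1, Prc1, Kif11, Aurkb, Ccna2, Cenpf and Tpx2. This rule found 151 cells among 5777, or 2.61% (Clopper-Pearson 95% interval 2.22 to 3.06). All cells came from CD1 wild-type embryos at embryonic day 15.5. The 16 samples carry the same strain, genotype and tissue, so they form 1 group, and cell names in the matrix carry no sample. CD1 is an outbred strain. The tissue is labelled forebrain, and the series' design text names the cerebral cortex. No replicate can be separated, hence intervals are for counting error alone and no p-value is given.

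The members were set beside 497 cells that met the same Eomes and Neurod1 condition with 0 UMIs of the 10 cycle genes, called non-dividing Eomes cells here. They were also set beside 221 dividing radial glial cells, which had at least 3 UMIs of the 10 cycle genes, 0 UMIs of Eomes and of Neurod1, at least 1 of Pax6, Emx1 and Emx2 together, and at least 3 of Sox2, Hes1, Hes5 and Slc1a3 together. Those cells had 0 UMIs of Dlx1, Dlx2, Dlx5, Dlx6os1 and Gsx2, genes of the ventral forebrain. A further 76 cells met this radial glial gate with 0 cycle UMIs. UMIs were summed over the cells of a group and scaled to counts per 1000000 UMIs of that group (CPM).

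In the developing cortex, radial glia line the ventricle, divide there and keep their progenitor state in part through Notch signalling, whose targets include Hes1 and Hes5. Their daughters that switch on Neurog2 and Eomes become intermediate progenitors, which move basally into the subventricular zone. There they divide, most often to give pairs of excitatory neurons, and Neurod1, Neurod2, Neurod6 and Tbr1 come on as these neurons form. Eomes RNA is still present in neurons that have just left the cycle, so Eomes cells hold both dividing progenitors and their young neuronal products.

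Eomes lies at chr9:118478212-118486132 on the plus strand of mm10, Top2a at chr11:98992943-99024189 and Mki67 at chr7:135689784-135716361, both on the minus strand. The values in this paragraph chose the cells and are a description. The members had a median of 6 Eomes UMIs (quartiles 3.5 and 8.5, highest 25), and 82 of the 151 had no Neurod1 UMI. They had a median of 11 cycle UMIs (quartiles 4 and 26, highest 107). Top2a, the topoisomerase that untangles sister chromosomes, was in 109 members (72.2%). Ccna2, cyclin A2, was in 101 (66.9%), and Mki67, which coats mitotic chromosomes, was in 86 (57.0%). Aurkb, the kinase of the chromosomal passenger complex, had the fewest members with a UMI, 59 (39.1%). Just inside the limits were 27 members with exactly 3 cycle UMIs, 26 with exactly 2 Eomes UMIs and 15 whose Eomes count was 1 above Neurod1. Just outside were 40 Eomes cells with 2 cycle UMIs, 113 with 1, 68 dividing cells with 1 Eomes UMI and no Neurod1, and 26 dividing cells with at least 2 Eomes UMIs that did not exceed Neurod1. Of all 1111 cells in the matrix with at least 3 cycle UMIs, the members made up 13.6% (11.6 to 15.7).

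**Figure D1:**
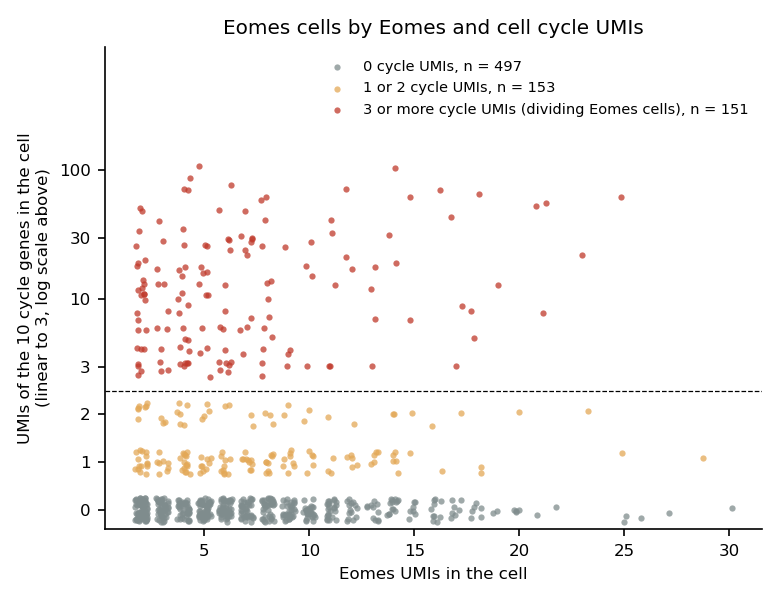
Eomes UMIs (x axis) against the summed UMIs of the 10 cycle genes (y axis, linear to 3 and log above) for the 801 cells that met the Eomes and Neurod1 condition, 1 point per cell. The 151 members lie at 3 or more cycle UMIs, 497 cells lie at 0, and the members spread from 2 to 25 Eomes UMIs, while the highest of the other cells reaches 30.

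Of the 4 markers given for these cells, only Neurog2 was not part of the rule. Neurog2, the proneural factor that starts neurogenesis in the cortex, had a UMI in 117 members (77.5%), with a median of 3 and up to 27. In 865 cells with at least 3 UMIs of Dlx1, Dlx2, Dlx5 and Dlx6os1 together and at least 2 of Gad1 and Gad2, called Dlx and Gad cells here and expected to lack it, 9.60% had a Neurog2 UMI. After every cell was thinned at random to 1000 UMIs, the shares with Neurog2 were 45.0% of the members, 9.96% of dividing radial glial cells and 3.58% of Dlx and Gad cells. Insm1, a zinc finger factor of basal progenitors, was in 132 members (87.4%), but also in 42.9% of Dlx and Gad cells, and after thinning in 65.6% of the members, 31 of 221 dividing radial glial cells and 24.5% of Dlx and Gad cells. Together 142 members had a UMI of Neurog2 or Insm1.

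Median depth was 4667 UMIs in the members (1175 to 14672), 2990 in non-dividing Eomes cells, 4301 in dividing radial glial cells and 2814 in Dlx and Gad cells. The matrix falls into 2 runs of consecutive cells, which no label names. They show in where Y-linked UMIs lie and in 11 genes listed late. The first run held 115 members and the second 35, with 1 member between them, against 239 and 258 non-dividing Eomes cells. RNA of ventral forebrain cells was also present. At least 1 Dlx or Gad UMI was found in all but 78 members (51.7% had none), against 68.8% without one among non-dividing Eomes cells and 84.2% among dividing radial glial cells, whose gate required 0 UMIs of several Dlx genes. The class of Dlx and Gad cells took in 17 members, and 16 members exceeded 10000 UMIs. Doublets were kept. Summed over the ventral list, the level was 882 CPM in the members, 566 CPM in non-dividing Eomes cells and 6783 CPM in Dlx and Gad cells. Within the runs it was 1043 against 879 CPM in the first and 200 against 248 CPM in the second. Its part in the results below was not tested. Counts for the main lists are therefore also given for the cells with no Dlx or Gad UMI (78 members, 342 non-dividing Eomes cells and 186 dividing radial glial cells).

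Mitotic genes stood far above their level in non-dividing Eomes cells, a direction that the choice of cells sets. In this contrast 817 of 7792 genes with at least 50 UMIs were at least 1.5-fold higher in the members (10.5%) and 932 were at least 1.5-fold lower (12%). A gene past 1.5-fold is called higher or lower from here on. Among cells with no Dlx or Gad UMI, 11.5% of 6044 measured genes were higher and 16.1% lower, which is what counts for that subset are read against. Nothing is tested on the cycle genes, and the 10 rule genes are left out of the counts. Of 21 measured mitotic triggers 20 were higher (median log2 ratio 4.25, against -0.04 for all genes), as were 24 of 25 kinetochore and checkpoint genes, 20 of 22 spindle genes, 7 of 11 cytokinesis genes and 18 of 20 genes of condensin and chromosome structure. Over all cycle lists 93 of 108 genes measured in the subset with no Dlx or Gad UMI were higher and none lower.

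Cdk1, the kinase that drives entry into mitosis, had 286 CPM in the members and 10.8 CPM in non-dividing Eomes cells, a 26.6-fold difference (16.5 to 45.7). Plk1, the Polo kinase, had 132 against 2.39 CPM (55.2-fold, 20.9 to 206), the lower value from 4 UMIs. Both were higher in each run. Among kinetochore genes Cdca8, a passenger complex subunit, had 316 against 5.38 CPM (58.7-fold, 30.4 to 130), and the checkpoint kinase gene Bub1b had 189 against 4.78 CPM (39.5-fold, 19.5 to 93.0). Ect2, the exchange factor that starts the cleavage furrow, had 215 against 7.18 CPM (29.9-fold, 16.7 to 59.0). Of 19 measured genes whose loss causes primary microcephaly 11 were higher, among them Aspm, a spindle pole protein, at 98.7 against 2.99 CPM, and the condensin gene Ncapd2 at 216 against 20.9 CPM. Fewer molecules per cell and fewer cells with the gene cannot be told apart in such sums.

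The promoters of these genes were read for short elements known from cell cycle genes. The CCAAT box is read here as CCAAT and the cell cycle homology region (CHR) as TTTGAA or TTCGAA, on either strand. Matching was by letters in RefSeq promoter windows (build GRCm38.p6, 250 bases before to 50 after each start). Of 53 genes of the mitotic lists at least 10-fold higher in the members, 41 had an entry, with 44 windows. A CCAAT box was in 75% of them, a CHR in 79.6% and both in 65.9%, against 37.4%, 19.2% and 7.53% of all 32851 windows. Windows of the 19 neuronal genes that were lower in the members (18 windows of 14 matched genes) held both in 11.1%. A match is a description, not a binding site. Stretches of 5 such promoters that carry both elements and overlap no annotated exon are shown as examples. Capitals mark the CCAAT box and the CHR, which read ATTGG and TTCAAA or TTCGAA where they lie on the opposite strand. Mki67 and Kif11 are rule genes, and Ccnb2 (cyclin B2), Bub1b and Ect2 are not.
Mki67, chr7:135716464-135716575, minus strand: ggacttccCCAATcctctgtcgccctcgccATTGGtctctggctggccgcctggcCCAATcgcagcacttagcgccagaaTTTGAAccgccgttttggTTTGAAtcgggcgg
Kif11, chr19:37376329-37376376, plus strand: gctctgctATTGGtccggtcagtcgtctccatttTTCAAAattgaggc
Ccnb2, chr9:70421563-70421729, minus strand: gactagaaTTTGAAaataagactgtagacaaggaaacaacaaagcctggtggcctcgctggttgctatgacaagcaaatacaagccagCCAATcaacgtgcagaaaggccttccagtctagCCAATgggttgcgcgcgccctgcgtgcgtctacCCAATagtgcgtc
Bub1b, chr2:118598015-118598110, plus strand: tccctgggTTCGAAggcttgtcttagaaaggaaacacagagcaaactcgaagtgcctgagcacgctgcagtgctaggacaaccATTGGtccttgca
Ect2, chr3:27153921-27154000, minus strand: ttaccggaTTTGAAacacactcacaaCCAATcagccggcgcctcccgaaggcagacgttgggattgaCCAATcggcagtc

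Replication genes were higher as well, with smaller ratios than the mitotic genes. Of 45 measured S phase genes 40 were higher in the members and none lower (median log2 ratio 1.87). Mcm5, a subunit of the replicative helicase, had 174 against 42.5 CPM (4.10-fold, 3.06 to 5.53), and Pcna, the sliding clamp of the polymerase, had 160 against 53.2 CPM (3.01-fold, 2.28 to 3.99). The rule rests mainly on genes of G2 and M phases, but cells in S phase may also pass it. The direction of the replication genes is therefore not independent of the choice of cells. Tk1, thymidine kinase, had 97.5 against 2.39 CPM, from 79 and 4 UMIs. Among cells with no Dlx or Gad UMI, 30 of 32 measured S phase genes were higher (median 1.78).

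Another element, the E2F site, was read as TTCCCGC or TTGGCGC on either strand. It was in 57.1% of 35 windows of the S phase genes that were higher, in 20.5% of the mitotic windows above and in 6.81% of all windows, while a CHR was in 17.1% of the S phase windows. TTGGCGC can share letters with a CCAAT box read on the opposite strand (ATTGG). The promoters of Mcm6, another helicase subunit (265 against 87.3 CPM in the members and in non-dividing Eomes cells), and of Uhrf1, which guides maintenance DNA methylation (130 against 13.8 CPM), show the E2F site and the CCAAT box in capitals, without a CHR in the letters shown. Neither stretch overlaps an annotated exon.
Mcm6, chr1:128359707-128359822, minus strand: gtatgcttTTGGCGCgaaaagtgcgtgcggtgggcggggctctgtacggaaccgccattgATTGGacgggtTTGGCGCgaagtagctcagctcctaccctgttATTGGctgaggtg
Uhrf1, chr17:56303281-56303319, plus strand: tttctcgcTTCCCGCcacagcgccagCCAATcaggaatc

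Cyclins and cell cycle inhibitors were mixed. Ccnd1, cyclin D1 of the G1 phase, had 238 against 71.8 CPM in non-dividing Eomes cells (3.32-fold, 2.63 to 4.20) and a UMI in 37.1% against 13.3% of cells. Its relative Ccnd2 had 529 against 408 CPM (1.30-fold, 1.15 to 1.47). The inhibitor genes split. Cdkn1c, which encodes the p57 inhibitor (chr7:143458339-143461050), was 3.04-fold lower in the members (98.7 against 300 CPM, 2.39 to 3.89). It was lower in each run, 116 against 337 CPM in the first and 31.2 against 262 CPM in the second, and its share after thinning to 1000 UMIs was 5.96% against 19.9%. Cdkn2c, which encodes the p18 inhibitor, was 8.37-fold higher (90.1 against 10.8 CPM, 4.94 to 14.9), with a UMI in 27.2% against 2.62% of cells. Its level in non-dividing Eomes cells was 1.19 CPM in the first run and 20.5 CPM in the second, so the fold was 73.2 and 4.87. The 1.19 CPM is below 3 counts over the group, the floor that stands for a count of 0. The 73.2-fold value is therefore not a firm one, and a difference between the runs cannot be read from it. Cdkn2d was 3.79-fold higher, and Cdkn1b, the p27 gene, had 184 against 206 CPM, within 1.5-fold. Ccng1, a cyclin of the p53 response, was 4.77-fold lower (2.06 to 13.5), with only 6 UMIs in the members. Of 17 measured genes of cell cycle exit 3 were higher and 3 lower. Gadd45g, a growth arrest gene, had 279 against 310 CPM. In the second run it had 99.8 against 289 CPM, a 2.90-fold difference.

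The neurogenic genes were present in the members and mostly below their level in non-dividing Eomes cells. Of 23 measured genes of the intermediate progenitor list 9 were lower and none higher (median log2 ratio -0.51), and without Dlx or Gad UMIs 10 of 23 were lower and 1 higher (median -0.46). Neurog2 was 1.55-fold lower (818 against 1266 CPM, 1.42 to 1.69). It was 760 against 1161 CPM in the first run and 1029 against 1374 CPM in the second. Without cells that had a Dlx or Gad UMI its log2 ratio was -0.46, which is under 1.5-fold. The shares of cells with a Neurog2 UMI were 77.5% and 76.1% as deposited, and 45.0% and 56.3% after thinning to 1000 UMIs. Insm1 went the other way, with 1149 against 885 CPM (1.30-fold higher, 1.20 to 1.41), and 2.01-fold higher in the second run. Sstr2, a somatostatin receptor gene, had 83.9 against 160 CPM (1.91-fold lower, 1.46 to 2.53). Slc17a6, the vesicular glutamate transporter gene VGLUT2, had 116 against 220 CPM (1.89-fold lower, 1.51 to 2.40). Without Dlx or Gad UMIs these log2 ratios were -0.29 and -0.32, also under 1.5-fold. Btg2, an antiproliferative gene of neurogenic progenitors, had 423 against 549 CPM, and the Notch ligand gene Dll1 had 159 against 236 CPM, both within 1.5-fold.

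Genes of radial glia stood higher. Of 32 measured radial glial genes 21 were higher in the members than in non-dividing Eomes cells and none lower (median log2 ratio 0.80). Without Dlx or Gad UMIs it was 17 of 30 and none lower (median 0.70). Sox2, the neural stem cell factor (chr3:34650405-34652461), had 395 against 187 CPM (2.11-fold, 1.80 to 2.47). It had a UMI in 92 members (60.9%) and in 32.2% of non-dividing Eomes cells, and in 30.5% and 15.5% after thinning to 1000 UMIs. Hes1 (chr16:30064384-30067796), the repressor that Notch induces, had 185 against 55.6 CPM (3.33-fold, 2.55 to 4.36). The intermediate filament gene Nes, or nestin, had 239 against 64.6 CPM (3.71-fold, 2.91 to 4.73), and Fabp7, a fatty acid binding protein of glia, had 1381 against 581 CPM (2.38-fold, 2.18 to 2.59). All 4 were higher in each run. Not all radial glial genes followed. Pax6, the cortical progenitor factor, had 287 against 231 CPM and Hes5, also a Notch target, had 411 against 383 CPM, both within 1.5-fold.

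Signalling genes differed in part. Of 17 measured Notch genes 4 were higher and 1 lower (median log2 ratio -0.03). Without Dlx or Gad UMIs the balance turned, with 3 of 17 higher and 5 lower (median -0.20). Notch2, a receptor, had 64.2 against 26.3 CPM (2.44-fold), while the receptor gene Notch1 had 269 against 179 CPM, just past 1.5-fold as deposited, and a log2 ratio of 0.22 without Dlx or Gad UMIs. Of 28 Wnt, FGF and hedgehog genes 9 were higher and 1 lower (median 0.23), but without Dlx or Gad UMIs only 4 of 23 were higher and 1 lower (median 0.35), beside 11.5% of all genes. Gas1, a coreceptor for hedgehog ligands, had 226 against 107 CPM (2.11-fold, 1.71 to 2.61), and Tcf7l1, a Wnt transcription factor, had 66.6 against 26.9 CPM (2.48-fold, 1.64 to 3.76). Fzd8, a Wnt receptor gene, was 2.03-fold higher in all, but 1.23-fold lower in the second run.

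Neuronal genes were lower in the members, though not absent. Of 33 measured genes of newborn excitatory neurons 19 were lower and none higher (median log2 ratio -0.66), and without Dlx or Gad UMIs 21 of 33 were lower and none higher (median -0.73). Neurod6, a neuronal factor (chr6:55677822-55681263), had 903 against 1560 CPM (1.73-fold lower, 1.59 to 1.88), and 121 members (80.1%) still had a Neurod6 UMI, against 30.4% of Dlx and Gad cells. Tbr1, a deep layer factor that follows Eomes, had 257 against 405 CPM (1.58-fold lower, 1.35 to 1.85). Of 31 migration and delamination genes 8 were lower, among them the axon guidance receptor gene Robo2 at 71.6 against 156 CPM, and 1 was higher. That gene was Nde1, a dynein partner in mitosis and a microcephaly gene, at 189 against 36.5 CPM (5.17-fold, 3.82 to 7.08).

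Chromatin and cytoskeleton genes of dividing cells were higher too. The DNA-bending protein gene Hmgb2 had 663 against 75.4 CPM (8.79-fold, 7.23 to 10.8), and the histone variant gene H2afx had 686 against 76.0 CPM (9.03-fold). Of 28 chromatin genes 13 were higher and 1 lower, and of 10 tubulin genes 5 were higher and 1 lower. Tuba1b, an alpha tubulin, had 1045 against 196 CPM, while the neuronal beta tubulin gene Tubb3 had 655 against 944 CPM (1.44-fold lower). Tubulin and Hmg genes have close copies, and how the counting split reads between copies is not given in the sources used here. Of 23 genes of glycolysis and growth 3 were higher and 1 lower, beside 10.5% higher and 12% lower of all measured genes.

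**Figure D2:**
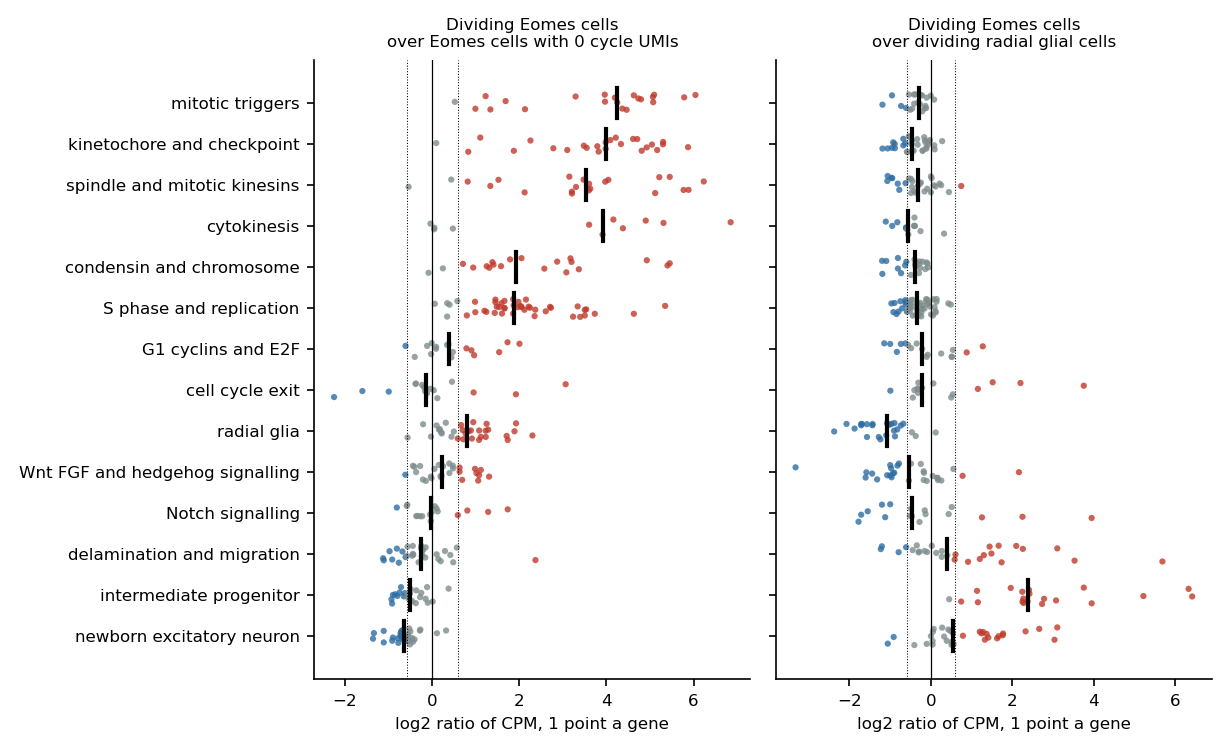
Each point is 1 measured gene of the gene list named on the y axis, placed by its log2 ratio (x axis), with a line at the list's median. Dividing Eomes cells are set against non-dividing Eomes cells in the left panel and against dividing radial glial cells in the right panel. On the left the mitotic triggers lie around 4.25 and the newborn neuron genes around -0.66. On the right the intermediate progenitor genes lie around 2.39 and the radial glial genes around -1.08.

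Against dividing radial glial cells the members differed by lineage genes, a direction that the gates on Eomes, Neurod1 and radial glial genes favour. Differences in cycle genes were smaller. Leaving the gate genes out of the counts does not remove this selection from the lists of intermediate progenitor, radial glial and neuronal genes. Here 741 of 6918 measured genes were higher in the members (10.7%) and 863 lower (12.5%). With no Dlx or Gad UMI it was 10.5% and 14.9% of 5413 genes. Eomes, Neurod1 and the genes of the radial glial gate chose the cells and are a description: Sox2 had 395 CPM in the members against 824 CPM, Hes1 185 against 501 CPM, Pax6 287 against 541 CPM, Slc1a3 148 against 495 CPM and Hes5 411 against 417 CPM.

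Of 20 measured intermediate progenitor genes 19 were higher in the members (median log2 ratio 2.39). Without Dlx or Gad UMIs 16 of 17 were higher (median 2.59). Neurog2 (chr3:127633135-127635631) had 818 against 119 CPM (6.87-fold, 5.65 to 8.41), with a UMI in 77.5% of members and 23.5% of dividing radial glial cells. In the first run it had 760 against 126 CPM and in the second 1029 against 111 CPM. Insm1 (chr2:146221921-146225020) had 1149 against 215 CPM (5.35-fold, 4.61 to 6.23). The proneural gene Neurog1 had 89 UMIs in the members and 0 in dividing radial glial cells, which makes it at least 37.2-fold higher against a floor of 3 counts over that group. Sstr2 had 68 UMIs against 1, a ratio of 85.2 with a counting interval of 14.8 to 3416. Gadd45g had 279 against 20.7 CPM (13.5-fold, 8.61 to 22.2). Hes6, which opposes Hes1, had 357 against 91.5 CPM (3.90-fold, 3.07 to 4.98).

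Among Notch genes a ligand gene was higher and receptor genes lower. Dll1 had 159 CPM in the members against 33.5 CPM (4.76-fold, 3.24 to 7.16), and Mfng, a glycosyltransferase that modifies Notch, had 197 against 12.8 CPM (15.4-fold, 8.77 to 29.6). Notch2 had 64.2 against 210 CPM (3.27-fold lower, 2.40 to 4.51) and Notch3 17.3 against 59.1 CPM (3.42-fold lower, 1.89 to 6.63). Notch1 had 269 against 371 CPM, within 1.5-fold. In all 3 of 17 measured Notch genes were higher and 6 lower, and without Dlx or Gad UMIs 2 of 12 and 6.

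Radial glial genes outside the gate stood lower. Of 26 measured genes of the list, which leaves out the gate's genes, 23 were lower in the members and none higher (median log2 ratio -1.08), and without Dlx or Gad UMIs the counts were also 23 of 26 (median -1.28). Tnc, the matrix protein tenascin C, had 35.8 against 185 CPM (5.17-fold lower, 3.49 to 7.93), Hopx 59.2 against 217 CPM (3.66-fold lower, 2.67 to 5.11) and Fabp7 1381 against 4507 CPM (3.26-fold lower, 3.06 to 3.49). Nes had 239 against 399 CPM (1.67-fold lower, 1.40 to 1.99). Of 29 Wnt, FGF and hedgehog genes 14 were lower and 2 higher, and without Dlx or Gad UMIs 14 of 26 and 3. Dkk3, a Dickkopf family gene, had 7.40 against 73.8 CPM (9.97-fold lower, 4.37 to 28.0) and Gas1 226 against 612 CPM (2.71-fold lower, 2.30 to 3.22). The immediate early genes Jun and Fos, which can respond to tissue dissociation, were 2.38-fold and 2.45-fold lower.

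Neuronal genes were higher in the members than in dividing radial glial cells. Of 33 measured newborn neuron genes 15 were higher and 2 lower (median log2 ratio 0.54), and without Dlx or Gad UMIs 12 of 28 were higher and 2 lower (median 0.45). Neurod2 had 481 against 141 CPM (3.42-fold, 2.82 to 4.17), Neurod6 903 against 266 CPM (3.40-fold, 2.95 to 3.92) and Elavl4, a neuronal RNA-binding protein gene, 627 against 94.5 CPM (6.63-fold, 5.32 to 8.34). The chemokine gene Cxcl12 had 82 UMIs against 2, a ratio of 51.4 (13.8 to 432). Unc5d, a netrin receptor gene of multipolar cells, had 59.2 against 6.89 CPM (8.60-fold, 3.87 to 22.5). Cdkn1c was 2.87-fold higher (98.7 against 34.5 CPM, 1.90 to 4.39), so its level in the members lay between those of dividing radial glial cells and non-dividing Eomes cells. That order held in each run, though in the second it rests on few Cdkn1c UMIs in 35 members.

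Most cycle genes of the members were within 1.5-fold of dividing radial glial cells, and more were lower than higher. Over all cycle lists, with the rule genes left out, 3 of 184 measured genes were higher and 47 lower (median log2 ratio -0.37, against -0.03 for all genes). Without Dlx or Gad UMIs 8 of 177 were higher and 28 lower (median -0.21, against -0.04 for all genes), a share of lower genes near the 14.9% of all genes. Cdk1 had 286 against 407 CPM (1.42-fold lower, 1.21 to 1.68), Mcm5 174 against 207 CPM (0.955 to 1.48) and Ccnd1 238 against 251 CPM (0.871 to 1.28), so the intervals of the last 2 include no difference. The members also held fewer cycle UMIs, with a median of 11 against 16. Between the 107 members and the 189 dividing radial glial cells with at least 6 cycle UMIs, where 10.7% of 6355 measured genes were higher and 12.8% lower, the same lists gave 7 higher and 36 lower of 182 (median -0.25). The lineage lists were nearly unmoved there, at 18 of 19 intermediate progenitor genes higher and 21 of 26 radial glial genes lower.

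The ratio of dividing to non-dividing cells was also formed within radial glial cells, from the 221 and the 76 cells of the gate. There 887 of 5762 measured genes were higher (15.4%) and 592 lower (10.3%). The Eomes and radial glial ratios share no cells. Each uses the cycle genes in its rule, so the values are set side by side without a test. Over 95 mitotic list genes measured in both, the median log2 ratio was 3.60 in Eomes cells and 3.09 in radial glial cells, and 59 genes had the larger ratio in Eomes cells. In 6 of the 95 the radial glial ratio was a bound. Over the same 95 genes the medians were 3.96 and 2.97 without Dlx or Gad UMIs (67 larger in Eomes cells), 4.20 and 2.87 for cells of the second run, 3.16 and 2.18 for those of the first, and 3.67 and 3.09 with at least 3 Eomes UMIs. In Eomes and radial glial cells 5 and 13 of these ratios were bounds in the second run and 0 and 19 in the first. Without Dlx or Gad UMIs they were 1 and 8. A bound uses the floor of 3 counts, so these medians depend in part on that floor. The order turned in some settings where each ratio was taken over its own measured cycle genes, which are then not the same genes in both. Those medians were 2.26 in Eomes and 2.10 in radial glial cells as deposited, but 1.89 and 2.13 without Dlx or Gad UMIs, 1.42 and 1.80 in the second run and 2.08 and 2.10 with 3 Eomes UMIs. Over 45 S phase genes the medians were 1.87 and 0.95, with 39 genes larger in Eomes cells. Mcm5 showed this pattern, at 4.10-fold in Eomes cells and 1.19-fold (0.860 to 1.68) in radial glial cells. Radial glial cells without cycle UMIs had more S phase RNA than non-dividing Eomes cells, 4863 against 1981 CPM summed over the list, while the dividing cells of the gate had 7905 CPM.

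Radial glial genes were higher in the dividing class of Eomes cells, while in radial glial cells they were nearly level. Both radial glial classes had to pass a gate on radial glial genes, and the Eomes classes did not. The values therefore cannot show a contrast between lineages. Over 26 radial glial genes measured in both, the median log2 ratio of dividing to non-dividing cells was 0.86 in Eomes cells and -0.02 in radial glial cells, and 24 genes had the larger ratio in Eomes cells. In the second run this was so for 23 of them and in the first for 22, as it was for 22 without Dlx or Gad UMIs. The other lineage lists gave no steady order. Over 26 newborn neuron genes the medians were -0.64 in Eomes cells and -0.35 in radial glial cells, with -0.61 and 0.35 in the first run but -0.63 and -0.74 in the second. Over 12 intermediate progenitor genes they were -0.48 and -0.67, with -0.37 and -1.02 in the second run but -0.38 and -0.20 in the first. Nes was 3.71-fold higher in dividing Eomes cells and 1.44-fold higher in dividing radial glial cells (399 against 277 CPM). Cdkn2c was higher in both, 8.37-fold and 10.3-fold (3.44 to 50.7), the second ratio against 3 UMIs. Of the 76 non-dividing radial glial cells 1 held 2841 of the 2843 UMIs of Ttr, the choroid plexus gene transthyretin.

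**Figure D3:**
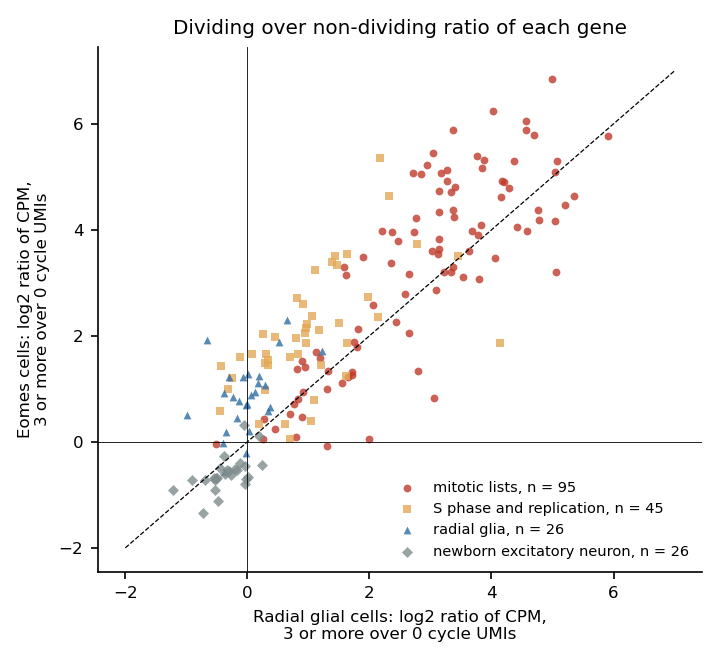
The log2 ratio of dividing to non-dividing cells in radial glial cells (x axis) against the same ratio in Eomes cells (y axis), 1 point per list gene measured in both, coloured by list, with the line of equal ratios. The S phase genes lie above the line in 39 of 45 cases and the radial glial genes in 24 of 26.

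Along the number of cycle UMIs, levels in Eomes cells changed by steps. The classes were 0, 1 to 2 (153 cells), 3 to 5 (44 members) and 6 or more (107 members). Their median depths were 2990, 3522, 3058 and 4900 UMIs. They held 239, 92, 34 and 81 cells of the first run and 258, 61, 9 and 26 of the second. The part of depth and run in these steps was not tested. Sox2 had 187, 260, 358 and 407 CPM in these classes, and Hes1 had 55.6, 101, 143 and 198 CPM, each higher at every step. Cells with 1 to 2 cycle UMIs, outside the rule, already had 106 CPM of Ccnd1 and 110 CPM of Mcm5, against 71.8 and 42.5 CPM at 0 and 260 and 181 CPM at 6 or more. Cdkn1c had 300, 238, 87.0 and 102 CPM, so most of its difference lay between 1 to 2 and 3 to 5 cycle UMIs. Neurod6 had 1560, 1363, 972 and 881 CPM. Neurog2 had 1266, 1069, 752 and 839 CPM and Insm1 885, 810, 783 and 1265 CPM, so neither followed the classes in 1 direction. Summed over the lists, radial glial genes had 6327, 6986, 8652 and 10042 CPM, against 20716 CPM in dividing radial glial cells, and newborn neuron genes had 26149, 25650, 22518 and 16504 CPM.

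**Figure D4:**
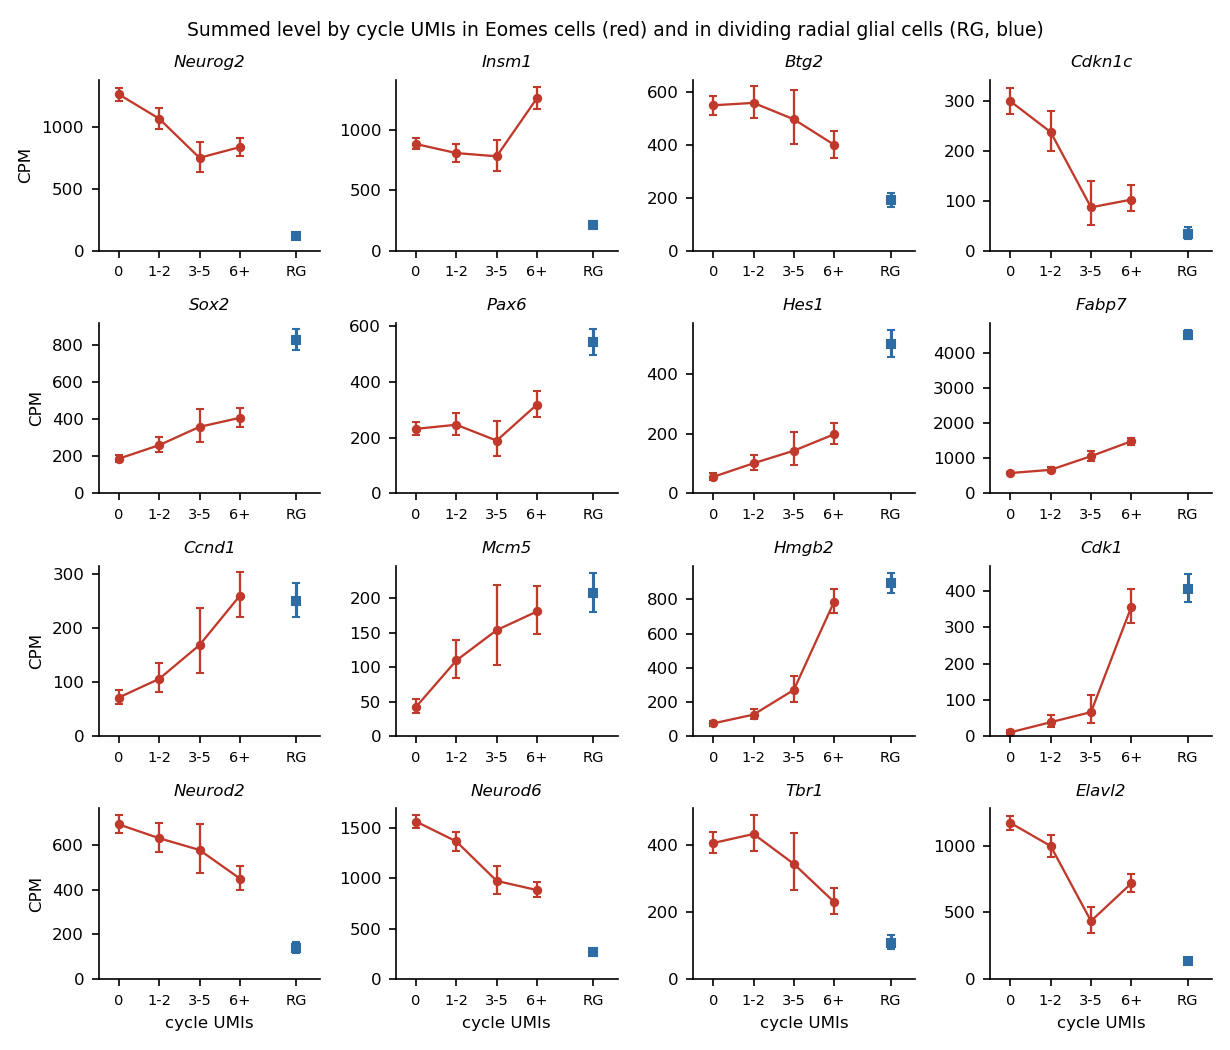
Level in CPM (y axes, from 0) of genes named in the panels, in Eomes cells with 0, 1 to 2, 3 to 5, and 6 or more cycle UMIs (x axis). The separate blue point marked RG in each panel is the level in dividing radial glial cells. Error bars are Poisson 95% intervals of the summed counts. Sox2 is higher at each step, from 187 to 407 CPM, while Neurod6 is lower at each step, from 1560 to 881 CPM.

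Members with many and with few cycle UMIs differed beyond the cycle genes. Between 6 or more and 3 to 5 cycle UMIs, a contrast cut from the rule genes, 13.7% of 4056 measured genes were higher and 8.68% lower. Of 18 mitotic triggers 17 were higher (median log2 ratio 1.95), against 16 of 36 S phase genes (median 0.48). Of 27 newborn neuron genes 9 were lower and 1 higher. Nhlh1, a helix-loop-helix factor of early neurons, had 42.3 CPM at 6 or more and 194 CPM at 3 to 5 cycle UMIs, and Robo2 was 3.37-fold lower. Median depth was 4900 and 3058 UMIs.

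The members also divided by Neurod1, the factor that marks the way to neurons. Of the 151 members 69 had at least 1 Neurod1 UMI and 82 had none, with median depths of 4900 and 4456.5 UMIs and median cycle UMIs of 12 and 11. Between them 6.49% of 4065 measured genes were higher with Neurod1 and 8.07% lower. The cycle lists were nearly level, with 6 of 133 genes higher and 10 lower (median log2 ratio -0.07). Of 27 newborn neuron genes 12 were higher with Neurod1 and none lower (median 0.54), and of 27 radial glial genes 20 were lower and none higher (median -0.76). Neurod1 is itself a neuronal factor, so the split favours these directions of neuronal and radial glial genes. The second run held 11 of the 69 members with Neurod1 and 24 of the 82 without. Median Eomes UMIs were 7 and 4.5, and 10 and 6 members exceeded 10000 UMIs. The part of run, depth and Eomes level was not tested. Counts without Dlx or Gad UMIs are not given for this split.

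Cxcl12 had 165 CPM with Neurod1 and 38.9 CPM without, and Nhlh1, Rbfox3, which encodes the neuronal protein NeuN, and Slc17a6 were 3.68-fold, 3.17-fold and 3.01-fold higher. Cdkn1c had 140 against 58.3 CPM (2.41-fold). Hes5 had 276 against 542 CPM (1.97-fold lower) and Fabp7 987 against 1762 CPM (1.79-fold lower), while Id1, an inhibitor of proneural factors, was 2.97-fold lower. UMIs of Neurog2 and Sox2 were both found in 75 members, and of Sox2 and Neurod2 in 67. With doublets kept these are counts of UMIs, not of coexpression. Neurod2 had a UMI in 72.8% of the members, but also in 216 of 865 Dlx and Gad cells and 26.7% of dividing radial glial cells. Sox2 was in 36 of the 69 members with Neurod1 and in 56 of the 82 without.

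Dividing cells made up 18.9% of the 801 Eomes cells (151 cells, Clopper-Pearson 95% interval 16.2 to 21.7), against 60.5% of the 365 cells of the radial glial gate (55.3 to 65.6). The share moved with the run and with depth. It was 25.8% of Eomes cells in the first run (21.8 to 30.1) and 9.89% in the second (6.98 to 13.5), against 68.0% and 53.3% of radial glial cells. After thinning to 2000 UMIs, which left out 973 of all cells, the shares were 12.5% (9.89 to 15.5) and 55.5% (49.4 to 61.5), and within the runs 16.7% and 7.60% of Eomes cells. After thinning to 1000 UMIs they were 5.27% and 30.4%. In each of these settings the Eomes share was below the radial glial share. A cell with 0 cycle UMIs may still be in the cycle, since these counts fall with depth. The rule also rests mainly on genes of G2 and M phases.

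Markers of microglia, vessels, erythroid cells, meninges and choroid plexus were near 0 in the members. Ventral genes, at 882 CPM, and Cajal-Retzius genes were not. Summed levels were 2.47 CPM for microglia, 1.23 CPM for endothelial and mural cells, 3.70 CPM for erythroid cells and 14.8 CPM for meninges and choroid plexus. Cajal-Retzius genes summed to 290 CPM in the members and 204 CPM in non-dividing Eomes cells. Dividing radial glial cells had 44.3 CPM of them, and all cells of the matrix 293 CPM. Of the 162 Reln UMIs in the members 91 came from 1 cell. Dlx1 and Dlx2 were 2.42-fold and 2.97-fold higher in the members than in non-dividing Eomes cells. In the second run Dlx2 had 0 UMIs in the members and 12.1 CPM in non-dividing Eomes cells.

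Most list genes called higher or lower had the same direction in both runs. The runs make up the cells in which these genes were called, and the first held 115 of the 151 members. Agreement is therefore partly built in, and it was not counted over all measured genes. Of 195 list genes higher in the members than in non-dividing Eomes cells 187 were above 1 in both runs. Of 45 lower genes 44 were below 1 in both. The cycle lists held 133 of the higher genes, a direction that the choice of cells favours. Against dividing radial glial cells this was so for 58 of 60 higher and 100 of 113 lower list genes. The second run held only 35 members, which limits each of its values.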

How the data were processed

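Single forebrain cells were processed with the SureCell droplet workflow of Illumina and Bio-Rad, per the labels. The authors deposited 1 matrix of raw UMI counts, whole numbers with no normalization, of 14498 genes in 5777 cells (21609944 UMIs, median cell 3258 UMIs, 1111 to 17398). The build is mm10 per the submitters' processing notes, and neither the aligner nor the counting tool is named in the labels. Each gene is in at least 5 cells and 0 mitochondrial genes are listed. There were 0 duplicate cell names, and 0 further columns of sample values were left aside. The 16 samples form 1 group without replicates.

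UMIs were summed per group and scaled to CPM, with exact conditional binomial (Poisson) 95% intervals for ratios and Clopper-Pearson intervals for shares. PCR and capture errors are not covered. Genes needed 50 UMIs over both groups and 1.5-fold to count as higher or lower. A count of 0 was set to 3 counts over the group. Thinning drew 1000 or 2000 UMIs per cell. Doublets were kept, with removal by depth or Dlx and Gad UMIs as an alternative. Strand use in counting is not given, so overlapping antisense genes such as Dlx6os1 may share reads. Named genes were a fixed set plus, per list, the 3 with the largest and 2 with the smallest ratio past 1.5-fold, and 10 each way outside the lists with at least 100 UMIs, of which some are left out. Genes of the Neurod1 and cycle class splits, Fzd8 and the genes of the printed promoters were named after their values were seen. The members and the 27 gene lists (599 genes, 587 in the matrix) were chosen with earlier results of these data known. The E2F letters, the cells without any Dlx or Gad UMI and the ratios over the same genes were chosen after seeing the data. Positions are GENCODE M21, promoters RefSeq. Python 3.11.15, numpy 2.4.6, scipy 1.17.1, pandas 2.3.3 and matplotlib 3.10.9 were used, and the ratio script was tested on simulated data.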

Additional observations from a re-analysis of the deposited data

How the results depend on the processing

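The number of genes higher and lower in the members than in non-dividing Eomes cells (817 and 932) moved to 1260 and 1463 with a minimum of 20 UMIs, 469 and 536 with 100, 3147 and 2096 with none and 351 and 204 with a 2-fold limit, and 530 were higher after thinning to 2000 UMIs. Against dividing radial glial cells (741 and 863) these were 1234 and 1439, 396 and 454, 2625 and 2619, 262 and 273, and 410 and 496 after thinning, and 338 and 541 in the second run. The minimum and the fold limit change which genes count, and thinning and the second run leave fewer UMIs or cells. The median log2 ratio over the cycle lists in Eomes cells was 1.42 in the second run over the genes with 50 UMIs there, and 2.96 there over the genes measured in all cells (2.26 in all cells). The share of dividing cells among Eomes cells (18.9%) was 23.8% with 2 and 13.9% with 5 cycle UMIs, 15.7% without cells above 10000 UMIs or with 2 Dlx or Gad UMIs, 15% without any Dlx or Gad UMI, 25.8% and 9.89% in the first and second run, and 5.27% and 12.5% after thinning to 1000 and 2000 UMIs. Between 6 or more and 0 cycle UMIs the second run gave log2 ratios of -0.23 for Neurog2 (-0.59 in all) and 1.22 for Insm1 (0.52). Gene directions reversed in the second run for Fzd8 against non-dividing Eomes cells (log2 -0.30) and Cdca2, a chromatin gene of mitotic exit, against dividing radial glial cells (0.061, from -0.63 in all). The cause was not tested. Of the other gene ratios under the alternatives 3239 stayed within the counting interval and 258 left it. A reversal was counted only for genes past 1.5-fold in the main setting. The minimum and the fold limit cannot change a gene's ratio. Those settings gave 206 (20 UMIs), 160 (100), 206 (none) and 206 (2-fold) of the 3239. Centring ratios on the median and scaling without cycle genes move all ratios of a comparison by the same small factor. Each of these gave a further 206 and says little about single genes. All 222 list medians for 6 lists in the 2 main comparisons moved by less than 1.5-fold, a limit under which a median near 0 may change sign. The 2-fold limit cannot move a list median, and centring and scaling move all of them alike. Each of those settings gave 12 of the 222. The small number of members in the second run, 35, limits its values. No paired analysis was possible because the matrix gives no sample for its cells.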

Other observations

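Outside the lists, the 10 genes with the largest ratios of members to non-dividing Eomes cells were 4.20-fold to 28.6-fold higher. 2810417H13Rik had 274 against 9.57 CPM (28.6-fold, 17.2 to 51.0), with 254 against 17.8 CPM in the first run (14.3-fold) and 362 against 1.21 CPM in the second. The 1.21 CPM is below the floor of 3 counts over the group. Fbxo5, the inhibitor of the anaphase-promoting complex, was 19.1-fold higher, with 110 against 9.49 CPM in the first run and 193 against 3.62 CPM in the second. Further genes of this set were Mxd3, a Max-binding repressor (16.2-fold), and Dbf4, the activator of the replication kinase Cdc7 (8.02-fold). Cyr61, a matricellular target of YAP signalling, had 223 against 37.7 CPM (5.93-fold, 4.43 to 8.03), with 234 against 41.5 CPM in the first run and 187 against 33.8 CPM in the second. Among genes that were lower, the amino acid transporter gene Slc6a15 had 17.3 against 54.4 CPM (3.15-fold, 1.78 to 5.99; 4.46-fold in the first run and 1.35-fold in the second), and Fam49a had 70.3 against 200.4 CPM (2.85-fold, 2.15 to 3.84).

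Against dividing radial glial cells, Lrrn3, a leucine-rich membrane protein gene, had 159 against 9.84 CPM (16.2-fold, 8.51 to 34.5), Plcxd2 was 10.2-fold higher and the neural zinc finger gene Myt1 6.18-fold. Abracl had 711 against 138 CPM (5.16-fold, 4.28 to 6.25) and Cited2, a transcriptional coregulator, 355 against 65.0 CPM (5.47-fold, 4.17 to 7.26). Ccdc80, a matrix protein gene, was 6.47-fold lower, Tnfrsf19, a TNF receptor family gene, 4.51-fold, and Zfp36l1, which binds AU-rich RNA, had 170 against 647 CPM (3.80-fold lower, 3.16 to 4.60). In the second run Plcxd2 was 18.9-fold higher, and Ccdc80 and Tnfrsf19 were 3.76-fold and 2.60-fold lower.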
